A study of Mus musculus with 2 samples.

Results

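The replication-dependent clustered histone genes of the mouse testis are described here in germ cells of a control and of a Dot1L conditional knockout (cKO). Members were chosen by name alone, as every gene whose symbol starts with Hist1h, Hist2h, Hist3h or Hist4h, except Hist1h1t, Hist1h2ba and Hist1h2aa. By this rule 64 of the 32285 listed genes are members, since 67 symbols match the pattern and 3 are excluded. The members comprise 5 H1, 17 H2A, 17 H2B, 12 H3 and 13 H4 genes. Both libraries were made from whole testis. The control was Dot1L fl/+ and Cre-, and the cKO was Dot1L fl/delta and carried Ddx4-Cre, in which a germ cell promoter drives the recombinase. By these genotypes cKO somatic cells also carry 1 delta allele. The DOT1L protein is a histone H3 methyltransferase. The labels give neither the number of animals per library nor the part of Dot1L that is floxed, and each genotype has 1 library, so every difference below is between 2 libraries with no replicate check and no test.

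Core histones H2A, H2B, H3 and H4 form the nucleosome, and linker histone H1 binds the DNA that enters and leaves it. The clustered genes supply new histones when DNA is copied. Their messengers usually end in a short stem-loop in place of a poly(A) tail, and a minority of genes also make spliced or polyadenylated forms, which can be read outside S phase. In the testis, spermatogonia and preleptotene spermatocytes copy DNA, later spermatocytes and round spermatids do not, and elongating spermatids replace most histones by protamines. The 3′ kit primes on poly(A), so the values count the captured RNA of each gene, and how the captured share differs between genes was not tested.

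The annotated 3′ end differs between members. A stem-loop of the searched form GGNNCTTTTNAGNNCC was present in an annotated transcript of 43 members. Some members without it have annotated transcripts that stop at the coding end. Examples are Hist1h2ai, Hist1h2ak and Hist1h2an, each with 393 annotated and 393 coding bases, so a stem-loop past that end would not be found. These RNA ends, from GENCODE vM21 on GRCm38 and written as DNA, are shown for members that the results turn on, with the 16-base stem-loop in capitals.
Hist2h2aa1: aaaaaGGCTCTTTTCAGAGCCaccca
Hist2h2aa2: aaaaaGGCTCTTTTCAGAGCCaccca
Hist2h2ac: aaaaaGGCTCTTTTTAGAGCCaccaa
Hist2h3c2: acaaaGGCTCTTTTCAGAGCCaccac
Hist1h2ap: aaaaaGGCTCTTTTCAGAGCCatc
Hist1h2bp: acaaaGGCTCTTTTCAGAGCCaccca
Hist1h4c: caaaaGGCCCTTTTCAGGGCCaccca
The H4 gene Hist1h4a has no stem-loop in its annotated transcript and holds AATAAA, the main poly(A) signal, in its last bases. The H2B gene Hist1h2bp has 2 annotated transcripts, of which 1 is spliced and lacks the stem-loop.

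Many members are close copies. For 38 of the 64, at least 50% of the 40-base words in the last 400 bases were shared with another gene. A read therefore cannot always be given to 1 of them, and such groups were also summed. A sum holds only reads that were counted at some member. Whether reads that fit several copies were left out of the counts was not tested, so the sums may be incomplete. Hist2h2aa1 (chr3:96245497-96246082, plus strand) and Hist2h2aa2 (chr3:96239749-96240276, minus strand) are single-exon H2A genes of GRCm38 that had 0 base differences over 393 coding bases. The last 60 coding bases are given below to show what separates the H2A members, with bases that differ from Hist2h2aa1 in capitals.
Hist2h2aa1: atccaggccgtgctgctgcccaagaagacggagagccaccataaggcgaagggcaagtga
Hist2h2aa2: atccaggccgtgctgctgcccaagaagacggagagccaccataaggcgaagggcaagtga
Hist3h2a: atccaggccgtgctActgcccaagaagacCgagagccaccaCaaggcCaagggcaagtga
Hist1h2ap: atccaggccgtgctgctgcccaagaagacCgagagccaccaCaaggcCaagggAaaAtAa
Over the whole coding sequence Hist1h2ap differed from Hist2h2aa1 at 34 bases and Hist3h2a at 56.

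The control library held 17408 barcodes and 155487418 UMIs, where a UMI (unique molecular identifier) marks 1 captured RNA molecule, and the cKO library held 20601 barcodes and 156518838 UMIs. Cells were clustered without any histone gene, and 14 clusters were named as 5 germ cell classes from 7 to 14 of 14 markers each. There were 253 control and 373 cKO spermatogonium-like cells. Spermatocyte-like cells numbered 741 and 1088 in the early class and 1328 and 1333 in the mid to late class. Spermatid-like cells numbered 1630 and 1432 in the round class and 3403 and 3122 in the elongating class. There were 85 cell barcodes that both libraries held. Dot1l itself was at 37.4 control and 5.19 cKO CPM in round spermatid-like cells and lower in 4 of the 5 germ cell classes beyond counting error, the exception being early spermatocyte-like cells with 59.7 and 56.8 CPM. A 3′ read outside the floxed part would not check the deletion. CPM (UMIs of a gene per 1000000 UMIs of the class) counts molecules and is not scaled by gene length, and intervals cover counting error at 95% only. Early spermatocyte-like cells mix cluster 13, with Dmc1 at 340 CPM, and cluster 5, with Piwil1 at 842 CPM. The first of these held 336 of 741 control and 663 of 1088 cKO cells, so both clusters are also given apart.

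Captured RNA of the members had 2 peaks along spermatogenesis in both libraries. In the control the sum of all members was 893 CPM in spermatogonium-like cells, 129 CPM in the early spermatocyte-like cluster 5 and 824 CPM in the round spermatid-like cluster 14. In the cKO library these values were 439, 94.8 and 566 CPM. The lowest value was 65.0 CPM in control cluster 4 and 59.4 CPM in cKO cluster 2, both of elongating spermatid-like cells. The first peak held all 5 histone types, whereas H1 was near 0 in the second. H1 reached 232 CPM in control cluster 13 and was 0.810 CPM in control round spermatid-like cells.

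**Figure D1:**
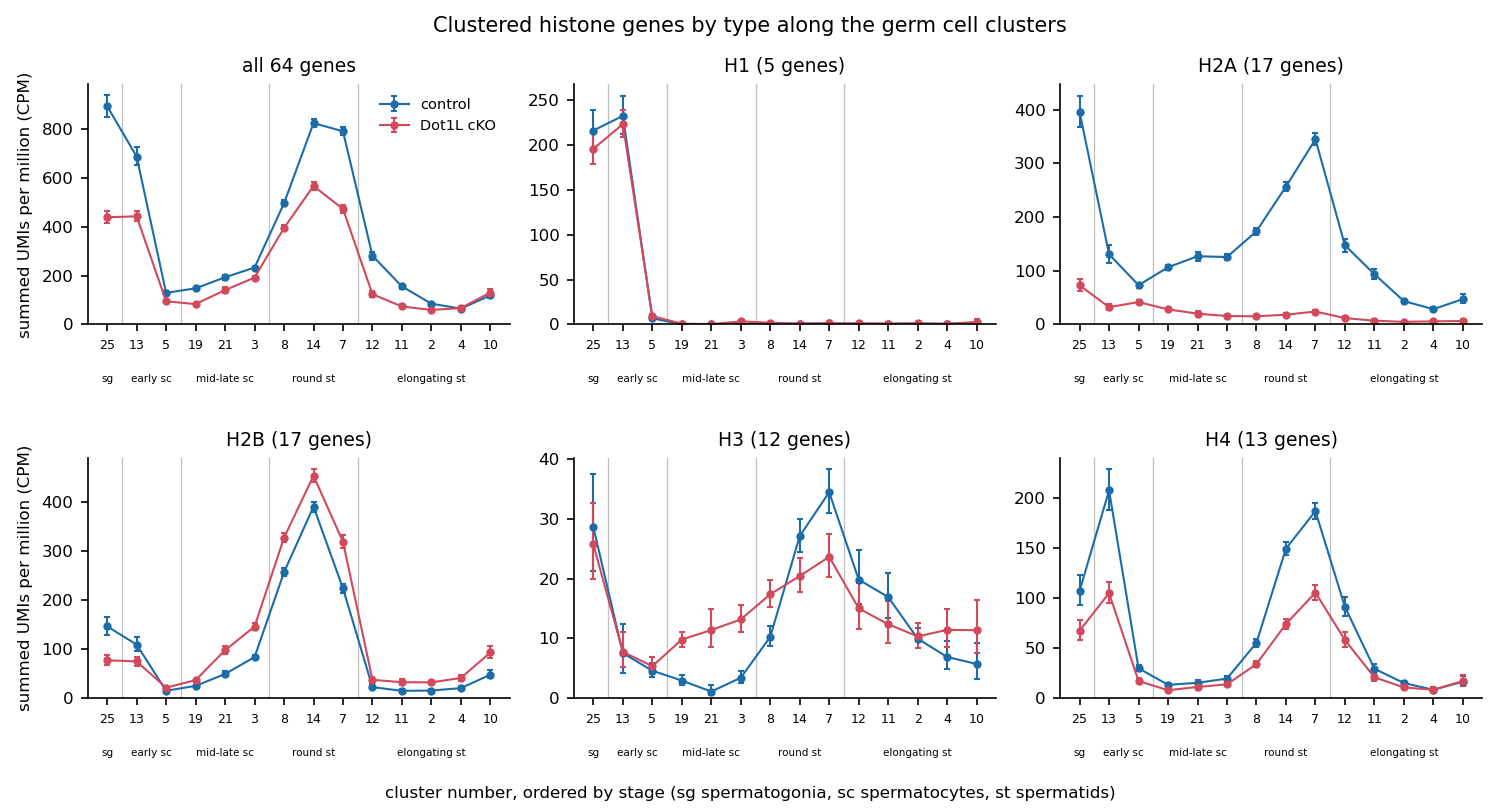
Summed CPM of all 64 genes and of each histone type (y axes, starting at 0) in 14 germ cell clusters ordered by stage (x axes), for the control (blue) and the Dot1L cKO (red) library; points are 1 library and bars are exact 95% Poisson intervals. The H2A sum of the cKO library lies below the control in 14 of 14 clusters, and the H2B sum lies above it in 12.

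Of the 64 members, 21 had 50 or more germ cell UMIs in each library, and 17 of these had their highest CPM in the same class in both. The early group of 9 was highest in spermatogonium-like cells and comprised Hist1h1a, Hist1h1c, Hist1h1e, Hist1h2ap, Hist1h2bj, Hist1h2bm, Hist1h4d, Hist1h4i and Hist3h2ba. The late group of 5 was highest in round spermatid-like cells and comprised Hist1h2bp, Hist2h2aa1, Hist2h2ac, Hist1h4a and Hist1h3a. Hist2h2be and Hist2h3c2 were highest in mid to late and Hist3h2a in early spermatocyte-like cells. The 4 that changed class were Hist1h2bc, Hist1h4c, Hist1h4h and Hist2h3c1. By cluster, Hist1h4c and Hist1h4h peaked in cluster 13 in both libraries, and so did Hist1h1e and Hist1h4d of the early group. Hist1h1e was at 59.3 and 68.6 CPM there, and Hist1h4d at 30.7 and 28.6 CPM. Hist1h1c in the control and Hist1h2bm in the cKO peaked in cluster 13 as well, so the place of these genes in the early group holds for the pooled class only. Another 33 members had under 50 germ cell UMIs over both libraries, and Hist1h2bq had none. Captured RNA was uneven: Hist1h2bp, Hist2h2aa1, Hist1h4a and Hist2h2ac made up 83.4% of all member UMIs of control germ cells and 72.1% of those of cKO germ cells.

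**Figure D2:**
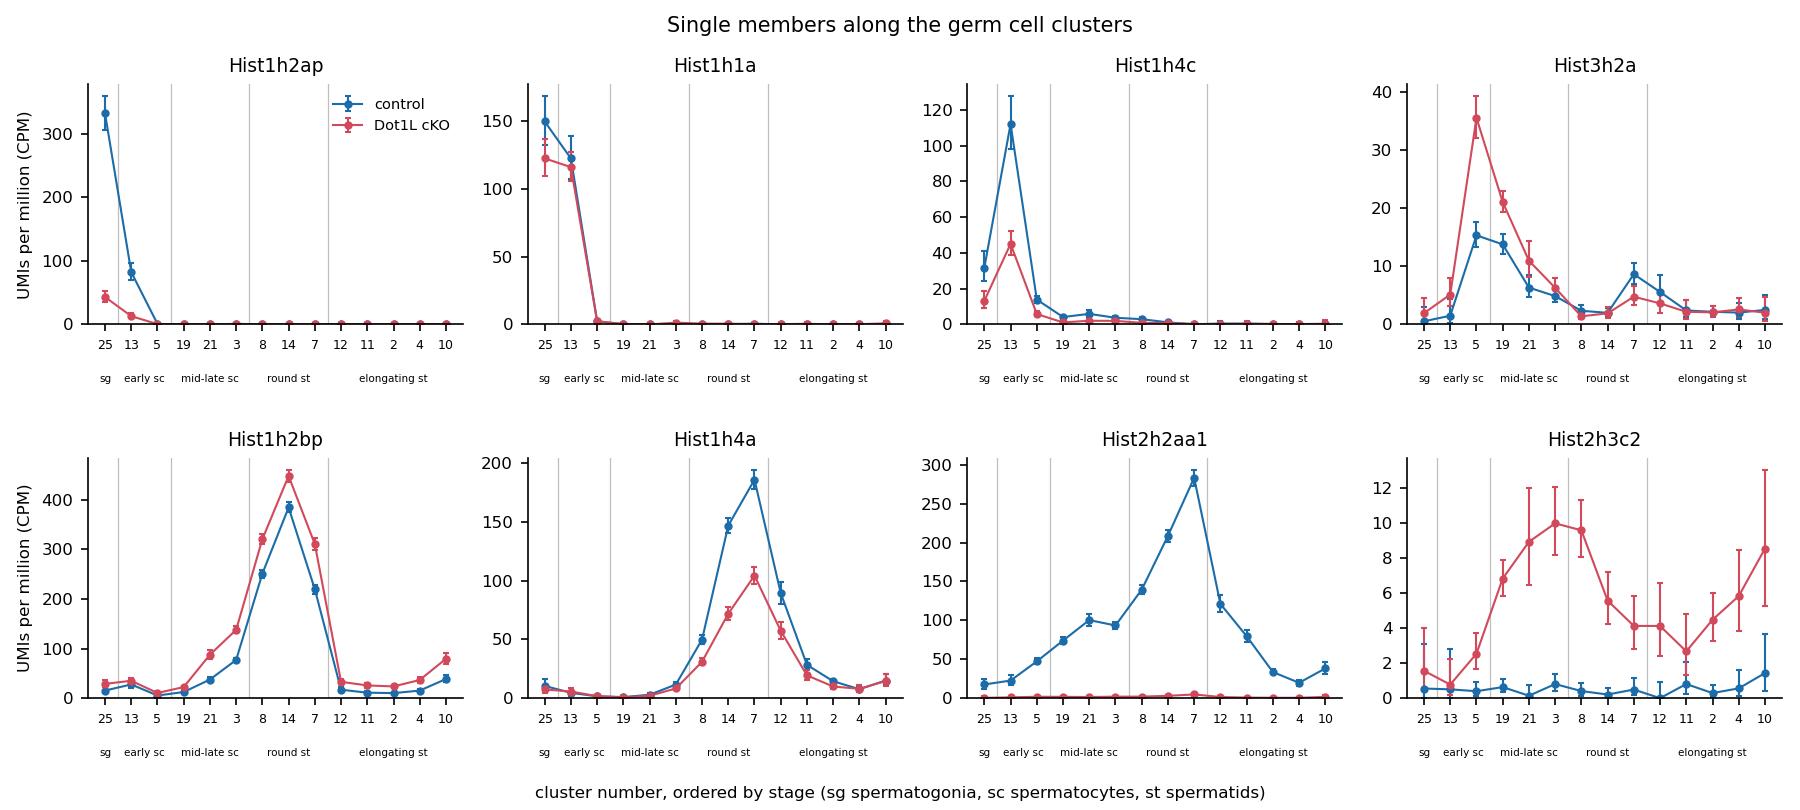
CPM of 8 members (y axes, starting at 0, scaled per gene) in the 14 ordered germ cell clusters (x axes), control in blue and Dot1L cKO in red, with exact 95% Poisson intervals. Hist1h2ap and Hist1h1a are at the left, Hist1h2bp, Hist1h4a and Hist2h2aa1 peak in clusters 14 and 7, and Hist2h2aa1 stays at or below 4.78 CPM in every cKO cluster.

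In spermatogonium-like cells captured H2A, H2B and H4 RNA was lower in the cKO than in the control, while H1 and H3 differed by no more than counting error. The sum of all members was 893 CPM (850 to 938) in the control, and that of the cKO was 439 CPM (413 to 465), a log2 ratio of −1.03 (−1.14 to −0.92). H2A was at 396 and 72.8 CPM, a log2 ratio of −2.44. H2B was at 146 and 77.1 CPM, a log2 ratio of −0.92, and H4 at 107 and 67.4 CPM. With cells assigned by their highest marker score the H2B ratio was −0.22, short of 1.5-fold. H1 was at 216 and 196 CPM, with a log2 ratio of −0.14 (−0.34 to 0.05), and H3 at 28.6 and 25.7 CPM. Of the 12 members with 50 or more UMIs in the class, 6 were more than 1.5-fold lower, against 4.75% of all genes measured, and 1 was more than 1.5-fold higher, against 8.15%. Their median log2 ratio was −0.52, beside −0.0040 for all genes.

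The H2A gene Hist1h2ap (chr13:21833026-21833507, minus strand, 1 exon) led this difference. It had 605 control and 111 cKO UMIs in spermatogonium-like cells, or 332 and 43.2 CPM, a log2 ratio of −2.94 (−3.25 to −2.65). It alone gave 37.2% of control member UMIs there. Its 3′ end is fully shared with that of Hist1h2ao, and the 12 Hist1 H2A genes summed gave 679 and 176 UMIs, or 373 and 68.6 CPM. A Hist1h2ap UMI was found in 49.0% of control and 19.8% of cKO spermatogonium-like cells. After each cell was thinned to 2000 UMIs, which left out 70 control and 54 cKO cells, the shares were 37.7% and 9.09%. In round spermatid-like cells, which do not copy DNA, the unthinned shares were 0.245% and 0%. Median depth was 6587 and 6085 UMIs in spermatogonium-like and 20923 and 19851.5 UMIs in round spermatid-like cells.

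Several other core histone genes were lower in these cells too, but not all. Hist1h2bm was at 45.0 and 12.9 CPM on 82 and 33 UMIs, and Hist1h2bj at 35.2 and 10.9 CPM on 64 and 28 UMIs. Hist1h4c was at 31.9 and 13.2 CPM. The copies Hist1h4m and Hist1h4n, which cannot be told apart, summed to 41 and 14 UMIs. Hist1h4d and Hist1h4i, at 18.1 and 16.0 CPM and at 13.7 and 17.1 CPM, differed by less than counting error. Hist1h2bp was higher in the cKO library, at 15.4 and 28.8 CPM on 28 and 74 UMIs, a log2 ratio of 0.91 (0.26 to 1.59). Free RNA, by its estimate, made up 15.6% of control and 14.2% of cKO UMIs of this class. It held Hist1h2bp at 109 and 135 CPM, and its part in this ratio was not tested. The linker histone genes Hist1h1e, at 30.2 and 30.4 CPM, and Hist1h1c, at 26.4 and 33.1 CPM, also differed by less than counting error. Hist1h1a was slightly lower in the cKO, at 150 and 123 CPM, a log2 ratio of −0.29 (−0.53 to −0.05).

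The next cluster in stage order showed the same types apart. In cluster 13, H2A was at 131 control and 32.2 cKO CPM, H4 at 208 and 105 CPM and H2B at 109 and 74.8 CPM. H1 was at 232 and 223 CPM there, a log2 ratio of −0.06 (−0.22 to 0.11). Hist1h4c had 223 and 175 UMIs in this cluster, or 112 and 45.1 CPM, and Hist1h2ap 164 and 51 UMIs, or 82.4 and 13.1 CPM. Pooled over both clusters, H1 was 37.5 and 66.3 CPM in early spermatocyte-like cells, a log2 ratio of 0.82. With the 2 clusters given the same weights in both libraries that ratio was 0.0019, and Hist1h1a moved from 0.80 to −0.08 and Hist1h1c from 0.59 to −0.21. Of 17 members measured in the pooled class, 6 were more than 1.5-fold higher, against 18.4% of all genes, and 6 lower, against 5.22%. With these weights 3 were higher, a count for which the share of all genes was not computed. Hist1h4h was at 8.82 and 3.37 CPM on 129 and 49 UMIs. Hist1h1e is overlapped on its strand by Hist1h2be, so its reads are uncertain.

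Histone RNA was higher in cells with more S-phase transcripts in both libraries. A list of 27 S-phase genes without histones, such as Mcm2 to Mcm7 and Pcna, was counted in each cell thinned to 2000 UMIs. In spermatogonium-like cells of the control the members summed to 435 CPM in cells with 1 to 3 S-phase UMIs, 714 CPM with 4 to 7 and 1446 CPM with 8 or more. The same bins of the cKO gave 323, 388 and 700 CPM. In cluster 13 they gave 361, 815 and 1342 control CPM and 280, 618 and 809 cKO CPM. The sum thus increased over these bins in both clusters and libraries. Cells of cluster 13 with 0 S-phase UMIs do not begin that order in the control, at 538 CPM (294 to 903) on 13 cells, and were at 194 CPM on 31 cKO cells. In cluster 5 there was no such order, with 129, 197 and 150 control CPM and 100, 117 and 33.3 cKO CPM, the last on 1 UMI in 15 cells. The S-phase list itself summed to 3112 and 2946 CPM in spermatogonium-like cells, and 0 of its 26 measured genes passed 1.5-fold in either direction. Of all genes measured in this class, 8.15% were higher and 4.75% lower.

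**Figure D3:**
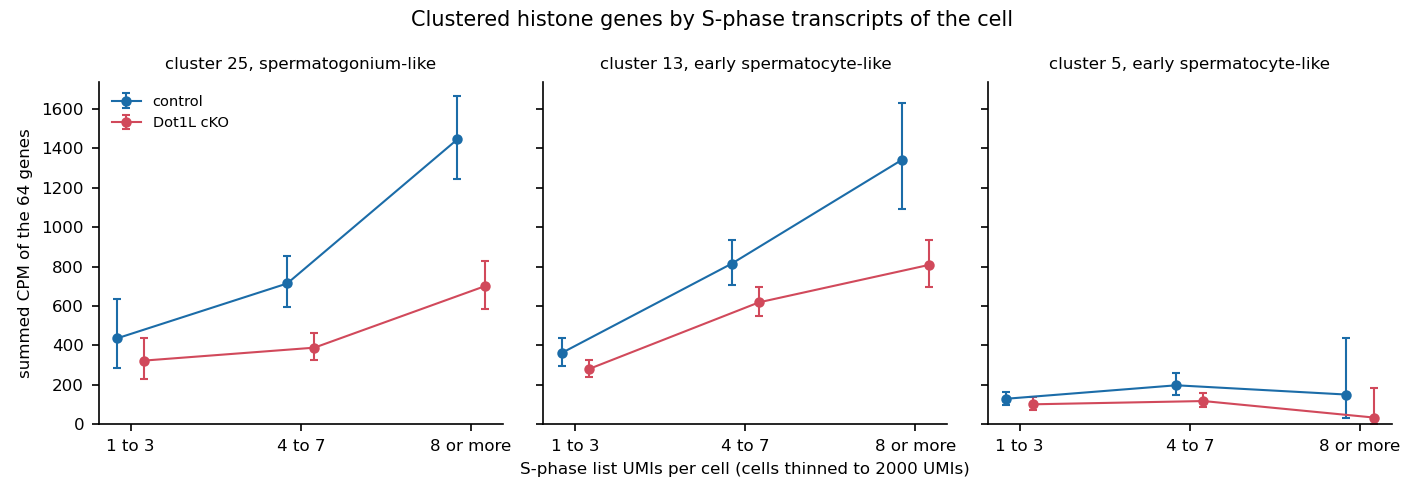
Summed CPM of the 64 genes (y axis, starting at 0) in cells binned by their S-phase list UMIs (x axis; cells with 0 are not drawn) in 3 clusters, control in blue and Dot1L cKO in red, with exact 95% Poisson intervals. The sums increase over the bins in clusters 25 and 13, to 1446 and 1342 control CPM and 700 and 809 cKO CPM, and stay under 200 CPM in cluster 5.

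Round spermatid-like cells held the second peak, and there the types parted. The sum of all members was 692 CPM (684 to 700) in control cells, and 469 CPM (461 to 476) in cKO cells, a log2 ratio of −0.56 (−0.59 to −0.53). H2A was at 248 and 18.2 CPM, a log2 ratio of −3.77, and H4 at 124 and 63.7 CPM, a log2 ratio of −0.96. H2B was higher in the cKO library, at 297 and 365 CPM, a log2 ratio of 0.30 (0.26 to 0.34), and H3 was at 22.7 and 19.8 CPM. The median log2 ratio of all genes in this class was 0.13. Of 12 measured members 7 were more than 1.5-fold lower, against 7.05% of all genes, and 3 were more than 1.5-fold higher, against 20.1%. Without Hist2h2aa1 the sum was 490 and 466 CPM, a log2 ratio of −0.07.

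Hist2h2aa1 carried most of the H2A difference. It had 7972 control and 95 cKO UMIs in round spermatid-like cells, or 202 and 2.95 CPM, a log2 ratio of −6.10 (−6.40 to −5.80). Its copy Hist2h2aa2 had 24 and 16 UMIs. The sum of both was thus 202 and 3.45 CPM, a log2 ratio of −5.88 (−6.16 to −5.60). The count at Hist2h2aa2 was thus not higher in the cKO library. The 3′ ends of the 2 copies are fully shared, so reads that fit both may be missing from both counts. These counts therefore cannot show where such reads went, and whether they were left out was not tested. A UMI of Hist2h2aa1 was found in 94.3% of control and 6.28% of cKO round spermatid-like cells. Thinned to 2000 UMIs, the shares were 32.7% (exact binomial interval 30.4 to 35.0) and 0.489% (0.197 to 1.005), with no cell left out.

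Uncorrected counts of Hist2h2aa1 were lower in the cKO library at every stage. The gene had 32 control and 1 cKO UMIs in spermatogonium-like cells. It had 643 and 23 in the early and 3530 and 72 in the mid to late spermatocyte-like class. Elongating spermatid-like cells had 1549 and 20. It was lower in 14 of 14 clusters, with control values from 17.6 to 283 CPM and cKO values from 0.389 to 4.78 CPM. Both libraries had their highest value in cluster 7 of the round spermatid-like cells. Uncorrected counts in somatic cells differed in the same direction. Leydig-like, macrophage-like and mesenchymal-like cells, 162 control and 469 cKO cells together, had 35 and 2 UMIs of the gene, or 62.7 and 1.01 CPM. A UMI was found in 17.3% and 0.426% of them, and in 6.76% and 0% after thinning, which kept 74 and 288 cells. For 0 of 288 cells the upper exact limit is 1.27%. Their median depth was 1840 and 2398 UMIs. Free RNA shed by other cells, estimated from spermatid markers in somatic cells, made up 32.7% and 23.0% of the UMIs of these somatic cells and held Hist2h2aa1 at 109 control and 1.88 cKO CPM. Whether somatic cells made the RNA themselves was not tested. In spermatogonium-like cells, subtracting free RNA moved the log2 ratio of the 2 copies from −5.50 to −2.26. By its estimate free RNA made up 15.6% of control UMIs of that class. With Hist2h2aa1 at 109 CPM, it would bring in most of the 17.6 control CPM there, so few control UMIs carry the corrected ratio. The free RNA part was not computed by cluster.

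The labels give no strain for either library, so whether both carry the same sequence at the chromosome 3 locus is not known, and genotype and strain cannot be told apart in the values of this locus.

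The neighbours of Hist2h2aa1 on chromosome 3 went in both directions. Hist2h2ac (chr3:96220361-96220880, minus strand), another H2A gene of 1 exon, had 1593 control and 273 cKO UMIs in round spermatid-like cells, or 40.3 and 8.49 CPM, a log2 ratio of −2.25 (−2.44 to −2.06). Its log2 ratio was −1.95, −2.01 and −2.04 in the early, mid to late and elongating classes. The H3 gene Hist2h3c2 (chr3:96238108-96239127, minus strand), which lies next to Hist2h2aa2, was higher in the cKO library. It had 25 and 328 UMIs in mid to late spermatocyte-like cells, or 0.607 and 7.89 CPM, a log2 ratio of 3.70 (3.11 to 4.35). In round spermatid-like cells it had 14 and 225 UMIs, a log2 ratio of 4.30 (3.53 to 5.20), and in elongating spermatid-like cells 15 and 121, a log2 ratio of 3.29. Only 1.94% of its 3′ end words are shared. Hist2h3c1, the H3 copy on the other side of Hist2h2aa1, had 56 and 89 UMIs in mid to late spermatocyte-like cells, a log2 ratio of 0.65 (0.16 to 1.16), and the 3 H3 copies of this locus summed to 81 and 418. Hist2h2be, an H2B gene with a long 3′ end and no stem-loop, had 336 and 377 UMIs there, a log2 ratio of 0.15 (−0.06 to 0.37).

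**Figure D4:**
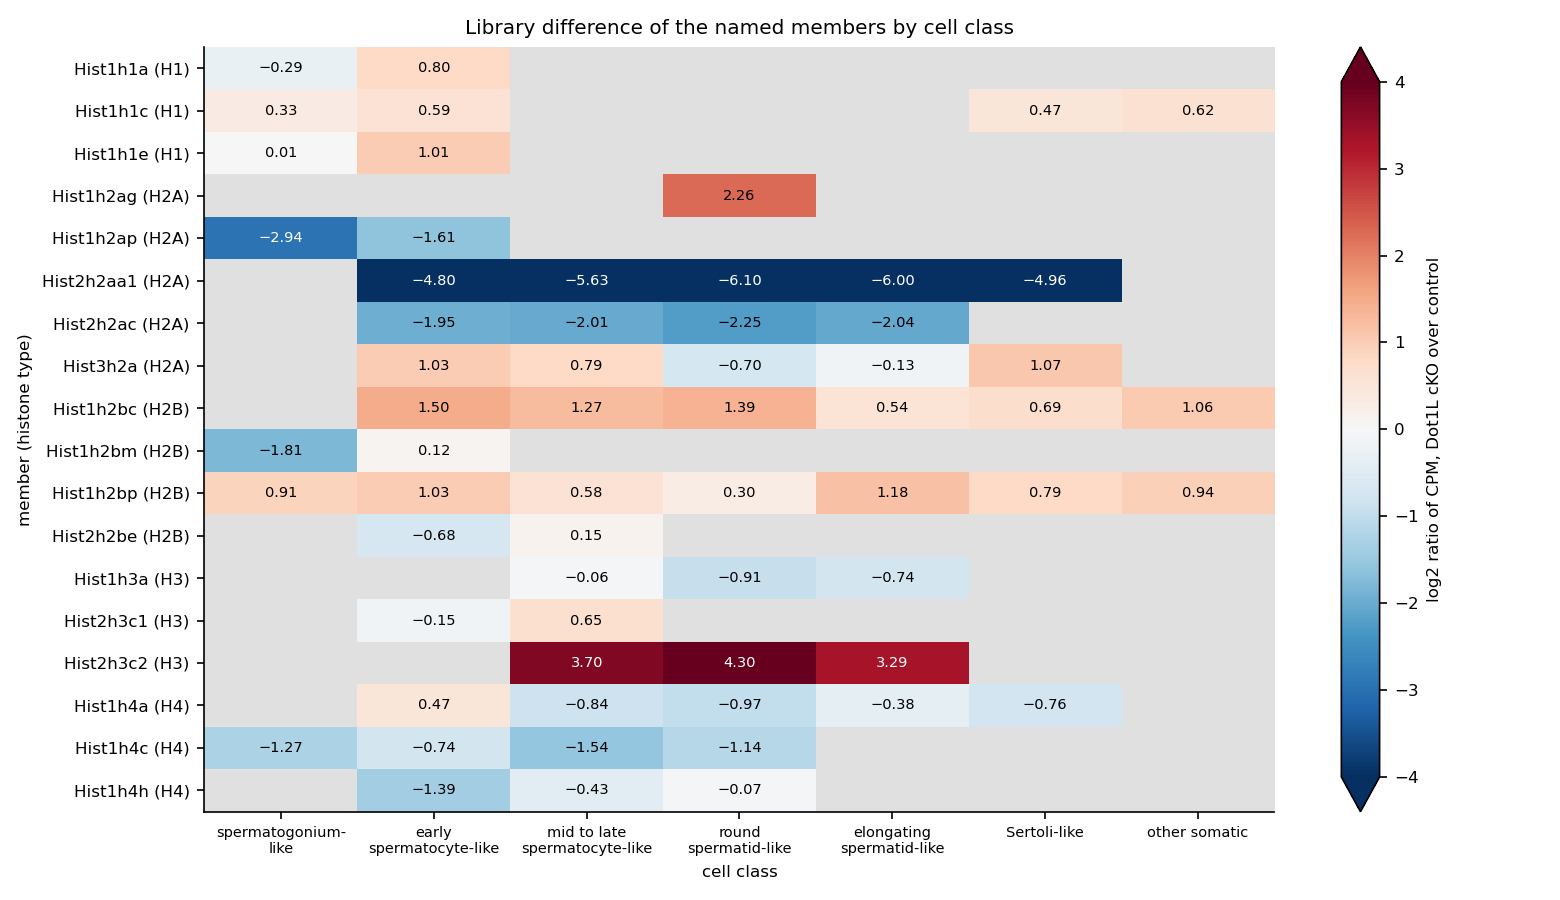
Log2 ratio of CPM, Dot1L cKO over control, of the named members (rows, with histone type) in 7 cell classes (columns); red is higher and blue lower in the cKO library, and grey marks members with under 50 UMIs over both libraries in the class. Hist2h2aa1 ranges from −4.80 to −6.10 in the 4 later germ cell classes, while Hist2h3c2 ranges from 3.29 to 4.30 in 3 of them.

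Summed by locus, the 10 chromosome 3 members were at 244 control and 20.3 cKO CPM in round spermatid-like cells, a log2 ratio of −3.59, or −1.29 without Hist2h2aa1. The 51 members on chromosome 13 were at 443 and 446 CPM, a log2 ratio of 0.01 (−0.02 to 0.04). In spermatogonium-like cells most of the difference was on chromosome 13 instead, with its members at 852 and 420 CPM and the chromosome 3 members at 22.5 and 5.06 CPM. An annotated read-through gene, Gm20634, overlaps Hist2h2aa1 and Hist2h3c1 on their strand. It is not listed by that name among the genes counted in these libraries, so it has no values here. Gm20632, on the strand opposite to Hist2h2aa2, had 152 control and 112 cKO UMIs in the round class and 100 and 154 in the mid to late class. The strand setting of the counting is not given in the sources used here.

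The level sum on chromosome 13 hid members that differed in opposite directions in spermatids. The H2B gene Hist1h2bp (chr13:21787461-21789213, plus strand) had 11537 control and 11575 cKO UMIs in round spermatid-like cells, or 292 and 360 CPM, a log2 ratio of 0.30 (0.26 to 0.34), which is 0.17 after scaling to the median gene. Its CPM was higher in the cKO library in 14 of 14 clusters, and its log2 ratio was 1.03, 0.58 and 1.18 in the early, mid to late and elongating classes. Over the processing alternatives these ratios ranged from 0.65 to 1.76, from 0.49 to 0.91 and from 0.71 to 3.89. A UMI of it was found in 95.5% of control and 96.5% of cKO round spermatid-like cells, or 43.7% and 50.9% after thinning. In the pooled somatic cells the shares were 7.41% and 15.8%, or 5.41% and 9.03% after thinning. The H4 gene Hist1h4a (chr13:23760692-23761230, minus strand) had 4762 and 1976 UMIs, or 121 and 61.4 CPM, a log2 ratio of −0.97 (−1.05 to −0.90). The H3 gene Hist1h3a (chr13:23761853-23762386, minus strand), 622 bases upstream of it, had 861 and 374 UMIs, or 21.8 and 11.6 CPM, a log2 ratio of −0.91 (−1.09 to −0.73). Hist1h1a, the next member along, had 12 and 17 UMIs in this class. The 3′ ends of Hist1h4a and Hist1h3a are shared in part with other Hist1 copies, and the sums over their copy groups of 6 H4 and 9 H3 genes gave −0.96 and −0.84. Hist1h4c was at 62 and 23 UMIs in the class and Hist1h2ag, an H2A gene, at 22 and 86.

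Promoters of the late members differed in their letters. Of the 64 members 58 had a promoter in the RefSeq table (GRCm38.p6), read as the 250 bases before the start site and searched on both strands. TATAAA, the core of the TATA box, was in 46.6% of them, against 12.97% of 27025 promoters of all genes, and CCAAT in 81.0% against 34.5%. ATTTGCAT, the octamer known from H2B promoters, was in 19.0% against 1.61%. TGACGTCA, the full cyclic AMP response element, was in 6.90% against 1.62%. Its 4 holders were Hist1h4a with 2 copies and Hist1h2ag, Hist1h2bj and Hist1h4h with 1 each. Hist1h2ag and Hist1h2bj are a divergent pair and hold the same site. Divergent pairs share sites of the other motifs too, such as Hist1h2ae and Hist1h2bg for TATAAA and the octamer. The shares of members thus count some sites for both genes of a pair. The promoters of 4 late members are printed with these motifs in capitals on either strand (CCAAT reads ATTGG on the other).
Hist1h4a (chr13:23761250-23761499, minus strand): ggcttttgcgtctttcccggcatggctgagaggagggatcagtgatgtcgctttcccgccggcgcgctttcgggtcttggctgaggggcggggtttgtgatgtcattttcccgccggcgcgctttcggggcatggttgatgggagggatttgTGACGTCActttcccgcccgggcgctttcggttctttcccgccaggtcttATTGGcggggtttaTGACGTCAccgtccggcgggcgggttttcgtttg
Hist1h2bp (chr13:21787238-21787487, plus strand): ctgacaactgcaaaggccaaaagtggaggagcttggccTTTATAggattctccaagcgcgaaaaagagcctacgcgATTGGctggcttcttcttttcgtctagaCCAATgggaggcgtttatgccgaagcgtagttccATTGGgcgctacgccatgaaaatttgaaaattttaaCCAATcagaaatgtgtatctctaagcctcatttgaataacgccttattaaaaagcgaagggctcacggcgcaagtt
Hist2h2aa1 (chr3:96245247-96245496, plus strand): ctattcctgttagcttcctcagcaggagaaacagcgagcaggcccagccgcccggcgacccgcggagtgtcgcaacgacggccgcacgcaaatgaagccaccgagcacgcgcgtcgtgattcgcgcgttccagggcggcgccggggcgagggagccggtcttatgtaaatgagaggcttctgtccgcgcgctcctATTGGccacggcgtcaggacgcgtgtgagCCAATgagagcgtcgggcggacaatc
Hist2h2ac (chr3:96220881-96221130, minus strand): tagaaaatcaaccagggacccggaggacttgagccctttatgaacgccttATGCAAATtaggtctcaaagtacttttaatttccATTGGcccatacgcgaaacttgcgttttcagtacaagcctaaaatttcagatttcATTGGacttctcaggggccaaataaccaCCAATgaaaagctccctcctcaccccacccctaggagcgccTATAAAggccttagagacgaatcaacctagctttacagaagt
Of these 4, only Hist1h4a held TGACGTCA in this window, and Hist1h4a and Hist2h2aa1 held no TATAAA. In Hist1h2bp it lies on the other strand only, as TTTATA, at the same site as in its divergent neighbour Hist1h2an. Whether any of these motifs bears on the difference between the libraries was not tested.

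Members with different annotated 3′ ends held different parts of the germ cell UMIs. The 20 members whose transcripts all end within 60 bases of a stem-loop held 19695 control and 2351 cKO UMIs, of which Hist2h2aa1 alone had 13726 and 211. The 23 with a stem-loop and a transcript that runs further or lacks it held 16457 and 19044, of which Hist1h2bp had 13798 and 15251. The 21 with no annotated stem-loop held 7228 and 4517, of which Hist1h4a had 5795 and 2644. Some of these 21 have annotated transcripts that stop at the coding end, so the grouping depends in part on how complete the annotation is. The 14 members with AATAAA in the last 50 bases held 21354 and 20139 UMIs. Of these UMIs Hist1h2bp had 13798 and 15251 and Hist1h4a 5795 and 2644, which went in opposite directions. The other 50 members held 22026 and 5773, of which Hist2h2aa1 had 13726 and 211, so these totals mostly follow single genes.

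In mid to late spermatocyte-like cells the sum of all members was 187 control and 119 cKO CPM, a log2 ratio of −0.65 (−0.71 to −0.60), and 101 and 117 CPM without Hist2h2aa1, a log2 ratio of 0.21. H2A was at 117 and 23.9 CPM and H4 at 15.9 and 9.86 CPM. H2B was at 50.5 and 72.4 CPM, with Hist1h2bp the main member, and H3 at 2.79 and 10.9 CPM, with Hist2h3c2 the main member in the cKO library. Of 12 measured members 4 were more than 1.5-fold higher, against 17.5% of all genes, and 4 lower, against 7.01%. Hist1h4c had 178 and 62 UMIs, a log2 ratio of −1.54 (−1.98 to −1.11), and Hist1h4h 240 and 180, a log2 ratio of −0.43. Hist3h2a, an H2A gene of the small chromosome 11 locus, had 381 and 666 UMIs, or 9.25 and 16.0 CPM, a log2 ratio of 0.79 (0.61 to 0.98).

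In elongating spermatid-like cells the sum was 121 control and 80.5 cKO CPM, a log2 ratio of −0.59, and 70.8 and 79.7 CPM without Hist2h2aa1. Scaled to the median gene the ratio of the sum was −1.06. The median log2 ratio of all genes was 0.47 in this class, so a ratio of 0 lies below most genes. Of 8 measured members 2 were more than 1.5-fold higher, against 41.3% of all genes, and 3 lower, against 3.71%. The 2 that were higher were Hist1h2bp and Hist2h3c2, and the 3 that were lower Hist2h2aa1, Hist2h2ac and Hist1h3a. H2B was at 20.1 and 40.5 CPM, a log2 ratio of 1.01 that ranged from 0.54 to 2.07 over the alternatives, and H2A at 62.6 and 6.72 CPM. By cluster, the sum of all members was lower in the cKO library in clusters 12, 11 and 2 and was 65.0 and 67.4 CPM in cluster 4 and 119 and 131 CPM in cluster 10, where the ratio intervals include 0.

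Somatic cells gave the members another order. In the pooled Leydig-like, macrophage-like and mesenchymal-like cells 3 members were measured, and all 3 were more than 1.5-fold higher in the cKO library, against 14.9% of all genes, with 0 lower, against 7.66%. They were Hist1h2bc at 106 and 220 CPM, the linker histone gene Hist1h1c at 50.2 and 76.9 CPM and Hist1h2bp at 21.5 and 41.2 CPM. The free RNA estimate would bring 35.5 control and 31.1 cKO CPM of Hist1h2bp into these cells, more than its control value and most of its cKO value, but 1.55 and 3.02 CPM of Hist1h2bc. Hist1h2bc, a spliced H2B gene with no stem-loop in its annotated transcript, was found in 22.2% of control and 34.8% of cKO somatic cells, or 14.9% and 31.2% after thinning. Of round spermatid-like cells 2.09% and 4.05% held it. It was also higher in the cKO library in early, mid to late and round classes, with log2 ratios of 1.495, 1.27 and 1.39. The 2 early clusters differed, with 8.04 and 5.16 CPM in cluster 13, a log2 ratio of −0.64 (−1.66 to 0.40), and 0.712 and 4.69 CPM in cluster 5, a log2 ratio of 2.72 (1.68 to 3.93). The cell types in the pool differ in number, at 86 Leydig-like, 37 macrophage-like and 39 mesenchymal-like cells in the control and 200, 138 and 131 in the cKO library, and the part of this mix in the ratio was not tested. Sertoli-like cells had 6 measured members, 3 higher, against 21.3% of all genes, and 2 lower, against 5.57%, but the free RNA estimate equals 99.6% of their control UMIs and 77.3% of their cKO UMIs, and its part in these values was not tested.

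Genes that make, process and carry new histones were measured beside the members. Of a list of 20 such genes, 3 of 18 measured were more than 1.5-fold higher in spermatogonium-like cells, against 8.15% of all genes. The count was 3 of 20 in the early class against 18.4%, 6 of 20 in the mid to late class against 17.5%, 6 of 18 in the round class against 20.1% and 10 of 15 in the elongating class against 41.3%. None of the measured genes of the list was more than 1.5-fold lower in these 5 classes. The shares of all genes that were lower were also small, at 4.75%, 5.22%, 7.01%, 7.05% and 3.71% in stage order. The summed level of the list in the mid to late class was 3280 control and 3055 cKO CPM, so the sum and the counts differ in direction there. Most of that sum was Nasp, at 2328 and 1948 CPM, a log2 ratio of −0.26. Asf1a, a chaperone of H3 and H4, was at 28.0 and 56.9 CPM in spermatogonium-like cells on 51 and 146 UMIs. Eri1, an exonuclease that trims the histone stem-loop, was at 43.9 and 79.8 CPM there. In mid to late spermatocyte-like cells Eri1 was at 5.90 and 17.8 CPM, a log2 ratio of 1.59. Lsm11 and Lsm10 belong to the U7 particle that cuts histone RNA ends. Lsm11 had 10 control and 133 cKO UMIs in mid to late spermatocyte-like cells, a log2 ratio of 3.72 (2.80 to 4.81). Lsm10 was at 34.4 and 70.4 CPM in round spermatid-like cells, a log2 ratio of 1.03 (0.93 to 1.13). The list's median log2 ratio was 0.00012, 0.27, 0.17, 0.40 and 0.79 over the 5 germ cell classes in stage order, beside −0.0040, 0.11, 0.09, 0.13 and 0.47 for all genes.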

How the data were processed

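Whole mouse testis was profiled with a droplet 3′ kit, with 1 library per genotype. The deposited matrices hold UMI counts, which the authors obtained from Cell Ranger 7.0.0 per the file headers; mm10 and Seurat 4.1.0 are named in the submitters' processing notes. Members and lists were chosen with earlier results of these data known.

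Barcodes under 500 UMIs, under 300 genes or over 10% mitochondrial UMIs were dropped, which left 15897 control and 18451 cKO barcodes. The doublet caller's own threshold marked 0 cells, so the highest-scoring 6% per library were removed, 958 and 1142. Cells were clustered with scanpy 1.11.5 and igraph 0.11.9 on 2000 variable genes (30 components, 20 neighbours, Leiden resolution 1.0), without histone, protamine, transition protein and mitochondrial genes and Dot1l. A first clustering separated the libraries, so 8395 genes over 1.5-fold apart between the libraries were left out and values were scaled within each library. This can place cells of both libraries together that differ in stage. No deposited annotation was used; clusters were named by marker lists (3 or more over 1.5-fold, with a pseudocount of 5 CPM), with the low-depth rule and the stage order of clusters set after they were seen, and rebuilt names may differ from the study's. Clusters under 25% of their class's depth (1300 control and 1756 cKO cells), unnamed clusters (4560 and 5296) and clusters rich in doublets (42 and 86) stayed out.

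UMIs were summed per class and library; genes with 50 or more UMIs were measured. Log2 ratios carry exact conditional intervals (scipy 1.17.1), tested on simulated data. No test was made, since cells are not replicates. S-phase bins and the free RNA estimate, 1125 control and 976 cKO UMIs per cell from all somatic classes, were changed after a first look. Named members had 100 or more UMIs in a class and were, per germ cell class, the 5 with the highest control CPM and the 5 highest and 5 lowest ratios, plus the copies of Hist2h2aa1 and up to 4 supply genes. Other members with values in the text, and Nasp of the supply list, were chosen after their values were seen. Alternatives were another scaling, classes by marker score, free RNA subtracted, doublets kept, 1000 UMIs per cell and other gene minimums, plus 3 added after seeing the data: low-RNA clusters included, clusters given the same weights in both libraries, and sums without Hist2h2aa1.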

Additional observations from a re-analysis of the deposited data

Results flagged for a closer look

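Hist3h2a, the H2A gene on chromosome 11, differed between the libraries in opposite directions at 2 stages. Its log2 ratio, cKO over control, was 1.03 in early spermatocyte-like cells (197 control and 399 cKO UMIs) and −0.70 in round spermatid-like cells (152 and 76 UMIs). The difference between these stages was not tested, because each has 1 library per genotype. In cluster 5, where the gene peaked in both libraries, it was at 15.3 and 35.6 CPM, with an interval of the log2 ratio from 0.96 to 1.47. In the 3 round spermatid-like clusters the gene was at 8.66 and 4.78 CPM in cluster 7 (log2 ratio −0.86, −1.46 to −0.28), at 2.36 and 1.41 CPM in cluster 8 (−0.75, −1.62 to 0.09) and had 29 and 20 UMIs in cluster 14 (−0.06, −0.96 to 0.81). With cells assigned by marker score the round value was −0.35 and with low-RNA clusters included −0.53, both short of 1.5-fold. Its annotated transcript overlaps Trim17 on the same strand, so reads of both genes may not be told apart.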

How the results depend on the processing

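No paired analysis was possible because each genotype has 1 library. Values are log2 ratios, cKO over control, unless counts of members are named, and the cause of each shift was not tested. Among the alternatives, the share of all genes past 1.5-fold was computed for the gene minimums only. Counts of members under the other alternatives therefore have no share to be read against. With Hist2h2aa1 left out, the sum of all members went to 0.21 in early and 0.21 in mid to late spermatocyte-like cells, −0.074 in round and 0.17 in elongating spermatid-like cells, and the H2A sum to 0.021, −0.49, −1.60 and −1.05. With clusters given the same weights in both libraries, early spermatocyte-like cells gave −0.55 for all members, 0.0019 for H1, −0.079 for H2B, −0.92 for H4, −0.080 for Hist1h1a, −0.21 for Hist1h1c and 3 members higher. Mid to late spermatocyte-like cells gave −0.53 for all members and 0.77 for H2B, and round spermatid-like cells −0.53 and, for H4, −0.88.

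With median-of-ratios scaling the sum of all members was −0.24, −0.75, −0.69 and −1.06 in the 4 classes from early spermatocyte-like to elongating spermatid-like cells. Round spermatid-like cells gave −3.89 for H2A, 0.17 for H2B and −1.08 for H4, mid to late spermatocyte-like cells 0.43 for H2B, and elongating spermatid-like cells −3.69 for H2A, 0.54 for H2B, −0.43 for H3, −0.84 for H4 and 5 members lower. With classes by marker score, early spermatocyte-like cells gave −0.34 for all members, 0.43 for H1, −1.25 for H2A, −0.68 for H4 and 2 members higher. Mid to late ones gave −0.48, −2.41 for H2A, 0.65 for H2B and 1.61 for H3. Elongating spermatid-like cells gave −0.87, −3.48 for H2A, 0.65 for H2B and −0.65 for H4, and spermatogonium-like cells −0.22 for H2B.

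With free RNA subtracted, spermatogonium-like cells gave −1.23 for H2B, −2.26 for the Hist2h2aa copies and 0 members higher, and elongating spermatid-like cells −0.34 for H1 and 2.07 for H2B. With 20 or more UMIs per gene, 12 of 22 members were lower in spermatogonium-like cells (7.66% of all genes at that minimum) and 11 of 28 in early spermatocyte-like cells (6.26%), and 8 of 21 were higher in the mid to late class (20.1%) and 7 of 21 in the round class (23.3%). With 1 or more UMIs in each library, 9 were higher and 21 lower of 44 in spermatogonium-like cells (15.4% and 13.5% of all genes). The counts were 17 and 15 of 48 in the early class (27.3% and 9.72%), 12 and 12 of 35 in the mid to late class (23.6% and 12.2%), 14 and 13 of 39 in the round class (27.3% and 11.1%) and 9 and 9 of 34 in the elongating class (46.0% and 7.37%). Keeping doublets, 1000 UMIs per cell and the low-RNA clusters moved 0 of 89 results each.

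Depth limited what can be said of the 33 members with under 50 germ cell UMIs, although counts of some differed, such as 35 and 5 of Hist1h2br. Intervals cover counting error of 1 library per genotype, not the spread between animals.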
